A study of Mus musculus with 44 samples.

Results

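The light-phase comparison of mice labelled Bmal1ΔcDC with control mice, both carrying tumour cells, comprised 16 of the 44 libraries of the series. Members were taken by label: 6 libraries of Bmal1ΔcDC mice (3 at ZT3 and 3 at ZT9) and 10 of control mice (5 at each timepoint), where ZT is the number of hours after lights on in a cycle with 12 h of light. Each library was made from CD45+CD11c+MHCIIhigh cells sorted from the draining inguinal lymph node of 1 female mouse aged 8 to 12 weeks, 24 h after subcutaneous engraftment of B16-F10-OVA, a mouse melanoma line that expresses ovalbumin. Bmal1ΔcDC mice carried 2 floxed alleles of Bmal1 and a Cre recombinase driven from the Clec9a locus, which is active in conventional dendritic cells (cDCs) and their progenitors. Control mice were labelled WT. All mice of the comparison received tumour cells, so a genotype effect here is an effect in tumour-bearing hosts. Control mice that were injected with PBS (sham, 3 at each timepoint) gave the level without tumour cells, and no sham libraries of Bmal1ΔcDC mice are part of this comparison. The design asks which transcripts of lymph node dendritic cells differ when the clock gene of the cDC lineage is targeted, at the 2 timepoints of the light phase.

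BMAL1, the protein of the gene Arntl, pairs with CLOCK and binds E-box elements, of which CACGTG is the canonical form. The pair drives the Period and Cryptochrome repressors, the REV-ERB nuclear receptors (Nr1d1, Nr1d2) and output factors such as DBP, and the repressors feed back on the pair. Dendritic cells carry antigen from the skin to the lymph node and prime T cells there through peptide on MHC, co-stimulatory ligands such as CD80 and cytokines. In bulk libraries such as these, fewer cells of a type and less RNA per cell cannot be told apart.

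The promoters of 5 genes on which the clock and co-stimulation results turn are shown as the 250 bases before the start site (RefSeq, GRCm38.p6, 5′ to 3′ on the gene's strand), with each CACGTG in capitals. They lie at chr11:69098699-69098948 (Per1, plus strand), chr3:95882229-95882478 (Ciart, minus strand), chr10:85185055-85185304 (Cry1, minus strand), chr7:45704997-45705246 (Dbp, plus strand) and chr16:38458683-38458932 (Cd80, plus strand).
Per1: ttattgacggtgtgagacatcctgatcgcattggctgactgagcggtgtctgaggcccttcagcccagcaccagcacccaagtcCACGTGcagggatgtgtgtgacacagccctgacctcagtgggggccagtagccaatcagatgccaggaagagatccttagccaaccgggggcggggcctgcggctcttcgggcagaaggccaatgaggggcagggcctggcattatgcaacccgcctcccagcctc
Ciart: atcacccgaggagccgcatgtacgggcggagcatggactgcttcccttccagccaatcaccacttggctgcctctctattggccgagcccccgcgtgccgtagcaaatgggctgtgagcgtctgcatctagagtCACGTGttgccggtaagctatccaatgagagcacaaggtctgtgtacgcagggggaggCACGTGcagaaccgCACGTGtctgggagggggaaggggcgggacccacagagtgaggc
Cry1: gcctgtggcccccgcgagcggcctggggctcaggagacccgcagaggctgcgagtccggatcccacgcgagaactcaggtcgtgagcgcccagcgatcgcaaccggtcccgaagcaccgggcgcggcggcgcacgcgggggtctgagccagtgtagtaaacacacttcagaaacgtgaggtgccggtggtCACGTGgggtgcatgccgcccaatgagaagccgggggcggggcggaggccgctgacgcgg
Dbp: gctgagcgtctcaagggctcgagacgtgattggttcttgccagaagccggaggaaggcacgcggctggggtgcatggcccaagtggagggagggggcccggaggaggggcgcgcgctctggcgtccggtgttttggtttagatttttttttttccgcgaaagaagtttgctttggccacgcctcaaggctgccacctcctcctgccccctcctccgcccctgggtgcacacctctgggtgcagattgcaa
Cd80: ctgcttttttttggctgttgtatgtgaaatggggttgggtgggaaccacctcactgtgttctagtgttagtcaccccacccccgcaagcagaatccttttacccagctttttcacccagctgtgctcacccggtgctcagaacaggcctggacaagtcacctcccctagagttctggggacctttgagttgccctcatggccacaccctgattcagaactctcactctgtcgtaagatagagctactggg
CACGTG reads the same on both strands. It was present once in the windows of Per1 and Cry1 and 3 times in that of Ciart, and these letters are not in the windows of Dbp and Cd80. Sequence outside the windows and other forms of the E-box were not searched. Another start site of Per1, with its window at chr11:69099902-69100151, had none. Shares of promoters with CACGTG were taken over windows of 300 bases, which add the 50 bases after the start site, and 7.15% of all 32851 RefSeq windows held it.

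The label was first checked against the targeted gene. Arntl (chr7:113178471-113314126) was present at 11.8 to 24.4 CPM (reads of a gene per 1000000 reads on genes; median 16.7) in the control libraries and at 11.5 to 23.9 CPM (median 17.6) in the Bmal1ΔcDC libraries. The 2 ranges lay over each other, and the sham libraries held 14.2 to 27.3 CPM (median 22.5). The difference was 0.12 ± 0.17 (SE) on the log2(CPM + 0.5) scale used for all differences, averaged over ZT3 and ZT9 (adjusted p = 0.667, limma; exact permutation of genotype within timepoints, two-sided, p = 0.471, where 0.000319 is the smallest p the 3136 arrangements can give). The targeted transcript was therefore not lower in the libraries labelled Bmal1ΔcDC. The deposited values are sums over the whole gene, and deletion of the floxed part was not tested. The groups below are named by their labels.

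Sorted cells carried the transcripts of conventional dendritic cells in every library. The summed level of 8 pan-cDC markers (such as Flt3, Zbtb46, Ccr7 and Cd74) was 18050 to 29630 CPM in the control libraries and 22650 to 29400 CPM in the Bmal1ΔcDC libraries. Of these 8, 0 differed by genotype in the test below, a count near the 14.6% of all genes that did. Clec9a, the endocytic receptor whose locus carries the Cre, was scarce in both, with 0.315 to 2.75 CPM in control and 0.0917 to 2.94 CPM in Bmal1ΔcDC libraries, against 2.54 to 8.32 CPM in sham libraries. Its genotype difference was -0.38 ± 0.30 (adjusted p = 0.441, limma). The melanoma transcripts Mlana, Tyrp1 and Dct had a median of 0 CPM in all 3 groups. Others of the list were present: Pmel had medians of 1.20, 1.20 and 1.08 CPM and Mitf of 1.005, 0.701 and 2.625 CPM in control, Bmal1ΔcDC and sham libraries. Neither Pmel nor Mitf differed by genotype (adjusted p = 0.991 and 0.861, limma).

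Depth separated the groups. The deposited values are CPM, so reads on genes were estimated from the CPM value of 1 read in each library. The estimates were 21126495 to 27557466 in the control libraries, 29806373 to 55799163 in the Bmal1ΔcDC libraries and 28003328 to 45243720 in the sham libraries. Tumour-bearing control libraries thus lay below both other groups in depth, and the Bmal1ΔcDC and sham ranges overlapped. Between the 2 tumour-bearing groups, preparation or sequencing in separate sets cannot be told apart from genotype. The number of genes at 1 CPM or more was alike, 10538 to 11057 in control and 10733 to 10958 in Bmal1ΔcDC libraries. Control ZT3 replicate 3 correlated least with its group (mean r = 0.963, against 0.965 to 0.979 for the other control libraries of the light phase and 0.955 to 0.963 for the Bmal1ΔcDC libraries). The counts of called genes in the light phase, at each timepoint and in genotype by phase are given with and without it. Counts of 2-fold changes, of genes without overlap and of list members are given with it only.

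Of 11963 genes tested, 1747 (14.6%) differed between Bmal1ΔcDC and control libraries in the light phase (limma with timepoint as a covariate, adjusted p under 0.05), 1003 higher (8.38%) and 744 lower (6.22%) in Bmal1ΔcDC. A change of at least 2-fold was reached by 218 genes higher (1.82%) and 192 lower (1.60%). For 240 genes (2.01%) all 6 Bmal1ΔcDC libraries lay above all 10 control libraries, and for 161 genes (1.35%) they all lay below. The median difference over all genes was 0.02. With median-of-ratios scaling, the same test called 840 genes higher and 896 lower, and without control ZT3 replicate 3 it called 1167 higher and 1198 lower, so the balance of higher and lower calls rests on the scaling and on this library. At an unadjusted p under 0.05 there were 3467 genes. Each library is 1 mouse, and the p-values measure the spread between these mice.

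Promoters of the called genes held CACGTG about as often as those of the genes tested. The share was 11.9% of the 802 higher genes with a promoter window, 10.6% of the 585 lower genes and 11.5% of all 9626 tested genes with a window. Among clock genes, 4 of 15 with a window held it: Per1, Cry1, Ciart and Tef.

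The 24 genes with the smallest p among those changed at least 2-fold (12 higher, 12 lower) were set beside the sham libraries. The comparison with sham shares its Bmal1ΔcDC libraries with the main comparison, so each is given with its own values and no overlap is drawn. It called 203 genes (1.70%), 31 higher and 172 lower in Bmal1ΔcDC tumour mice than in sham control mice, and between 73 and 199 genes when 1 of the 12 libraries was left out.

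Members of a TRIM gene cluster on chromosome 7 gave the widest separations. TRIM proteins of this cluster are relatives of the restriction factor TRIM5 and act as ubiquitin ligases in innate immunity. Trim12a held 17.4 to 37.7 CPM (median 22.4) in control libraries, 0 to 0.619 CPM (median 0.161) in Bmal1ΔcDC libraries and 19.2 to 30.1 CPM (median 26.7) in sham libraries. Every Bmal1ΔcDC library lay below every control library, with or without tumour cells. The difference was -5.13 ± 0.17 from tumour-bearing controls (adjusted p = 2.38e-11, limma) and -5.26 from sham controls (adjusted p = 5.59e-08).

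Trim30d followed the same order, with 15.6 to 30.1 CPM in control, 0 to 2.17 CPM in Bmal1ΔcDC and 15.6 to 37.4 CPM in sham libraries (-4.75 ± 0.29, adjusted p = 3.72e-08, and -4.87 against sham, adjusted p = 7.68e-05, limma). Trim34a was lower but kept a clear level, at 41.2 to 67.8 CPM in control, 12.4 to 18.4 CPM in Bmal1ΔcDC and 37.9 to 63.5 CPM in sham libraries. Its neighbour Trim34b went the other way. Trim34b was at 0 to 0.404 CPM in control libraries and listed at 0 in all 6 sham libraries, whereas the Bmal1ΔcDC libraries held 7.67 to 14.2 CPM (4.24 ± 0.14 against tumour-bearing controls, adjusted p = 2.38e-11, limma). The size of the 3 differences in which a group is near 0 depends on the pseudocount, and all 4 genes held fractions of a read in 54.5% to 86.4% of the libraries, so reads shared among near-identical copies are uncertain.

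A further 4 genes, Art2b, Ppfibp2, Hddc3 and Lars2, stood apart from both control groups. Art2b, an ecto-ADP-ribosyltransferase of lymphocytes, was at 1.16 to 2.85 CPM in control, 25 to 32.2 CPM in Bmal1ΔcDC and 0.755 to 2.80 CPM in sham libraries (3.59 ± 0.16, adjusted p = 5.96e-10, and 3.43 against sham, adjusted p = 1.4e-05, limma). Ppfibp2, a liprin of the cell cortex, was at 13.7 to 37.1, 70.2 to 98.3 and 21.4 to 30.2 CPM in the same order (1.78 ± 0.18, adjusted p = 1.53e-05, and 1.60 against sham, adjusted p = 0.000139). Hddc3, a nucleotide phosphohydrolase, was at 0.933 to 4.69, 8.31 to 12.8 and 0.94 to 2.95 CPM (2.11 ± 0.22, adjusted p = 2.25e-05, and 2.29 against sham, adjusted p = 0.000342).

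Lars2, the leucyl-tRNA synthetase of mitochondria, was the most abundant of the 24. It was present at 1959 to 4030 CPM (median 2246) in control, 234 to 388 CPM (median 299) in Bmal1ΔcDC and 976 to 1507 CPM (median 1098) in sham libraries. The 3 groups did not overlap. The difference was -2.99 ± 0.16 from tumour-bearing controls (adjusted p = 5.51e-09, limma) and -1.92 from sham controls (adjusted p = 0.000139).

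**Figure D1:**
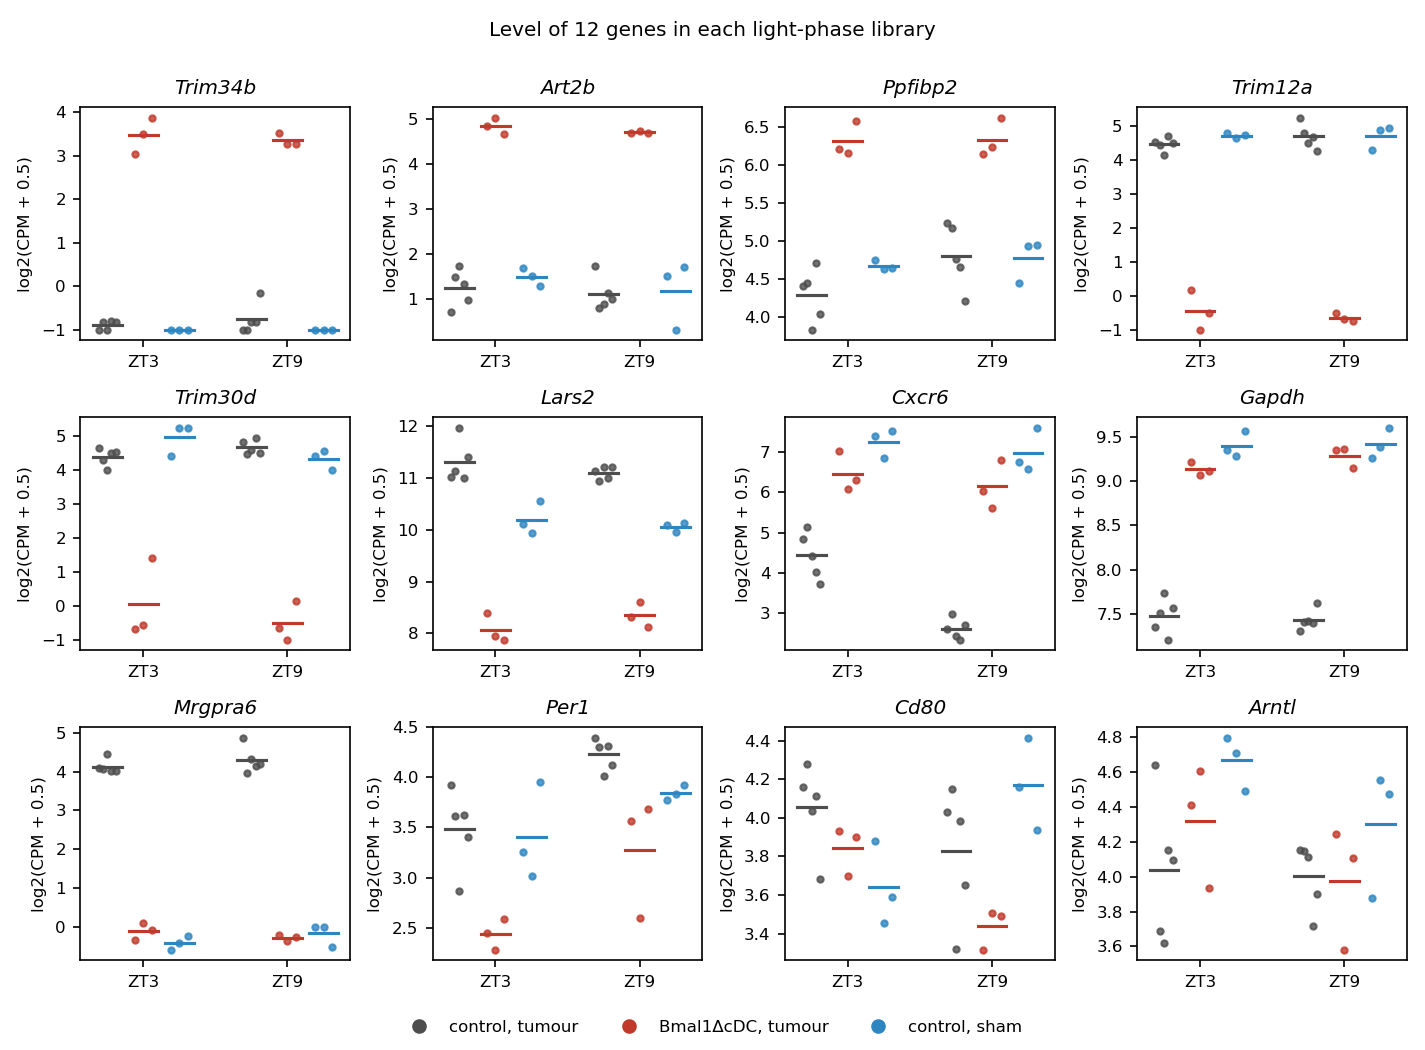
Level of 12 genes in each light-phase library as log2(CPM + 0.5), with control tumour, Bmal1ΔcDC tumour and sham libraries side by side at ZT3 and ZT9, 1 point per library and a line at each group mean. For Trim12a, Trim30d and Lars2 all Bmal1ΔcDC points lie below both control groups, for Trim34b, Art2b and Ppfibp2 above them, whereas for Gapdh, Cxcr6 and Mrgpra6 they lie nearer to the sham points.

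The other 16 of the 24 genes differed from tumour-bearing controls and lay nearer to sham controls than to tumour-bearing controls. Depth grouped the libraries in the same way, and its part in these 16 differences was not tested. Mrgpra6, a receptor of the Mas-related family, was at 15.2 to 28.9 CPM in control but at 0.275 to 0.57 CPM in Bmal1ΔcDC and 0.161 to 0.502 CPM in sham libraries. The tumour-bearing control libraries thus stood alone, at -4.41 ± 0.13 for Bmal1ΔcDC minus control (adjusted p = 1.17e-11) and 0.10 for Bmal1ΔcDC minus sham (adjusted p = 0.784, limma). H2-Q2, a class Ib MHC gene, was at 7.08 to 10.7, 0.574 to 0.893 and 0.43 to 1.83 CPM, and H2-Q4 at 173 to 238, 61.7 to 80.4 and 65.0 to 78.1 CPM in the order control, Bmal1ΔcDC and sham.

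Higher genes of this kind included abundant housekeeping transcripts. Gapdh, a glycolytic enzyme, was at 148 to 214 CPM in control, 536 to 655 CPM in Bmal1ΔcDC and 613 to 776 CPM in sham libraries (1.75 ± 0.09, adjusted p = 5.14e-09, and -0.20 against sham, adjusted p = 0.346, limma). Hmgb1, a chromatin protein that acts as an alarmin outside the cell, was at 168 to 191, 490 to 517 and 483 to 616 CPM, and the ribosomal protein gene Rpl21 at 106 to 167, 254 to 340 and 271 to 360 CPM. Control libraries with tumour cells lay below both other groups for all 3 genes. Gapdh, Hmgb1 and Rpl21 have many processed pseudogenes, and how reads shared with them were counted is not given in the sources used here. Eif4ebp2, a repressor of cap-dependent translation under mTOR control, went down with the same grouping, at 36.7 to 50.8, 7.72 to 15.6 and 11.3 to 18.8 CPM.

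The rest of the higher genes were 3 lymphocyte transcripts, Cxcr6, Cd69 and Fasl, together with Actn2 and Fam110a. Cxcr6, a chemokine receptor of effector T and innate-like lymphocytes, was at 4.55 to 35.0 CPM (median 10.1) in control, 48.7 to 129 CPM (median 72.6) in Bmal1ΔcDC and 95.3 to 195 CPM (median 142) in sham libraries (2.78 ± 0.30, adjusted p = 2.95e-05, limma). Cd69, an early activation lectin, was at 13.3 to 40.9, 57.2 to 129 and 108 to 159 CPM, and Fasl, the death ligand of cytotoxic lymphocytes, at 0.906 to 3.99, 7.02 to 10.2 and 8.89 to 18.1 CPM. Actn2, an alpha-actinin, was at 0.691 to 2.18, 3.62 to 8.47 and 5.34 to 15.7 CPM, and Fam110a at 36.2 to 57.1, 76.1 to 107 and 76.5 to 105 CPM. The Bmal1ΔcDC libraries lay above all control libraries with tumour cells for each of the 5 genes.

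**Figure D2:**
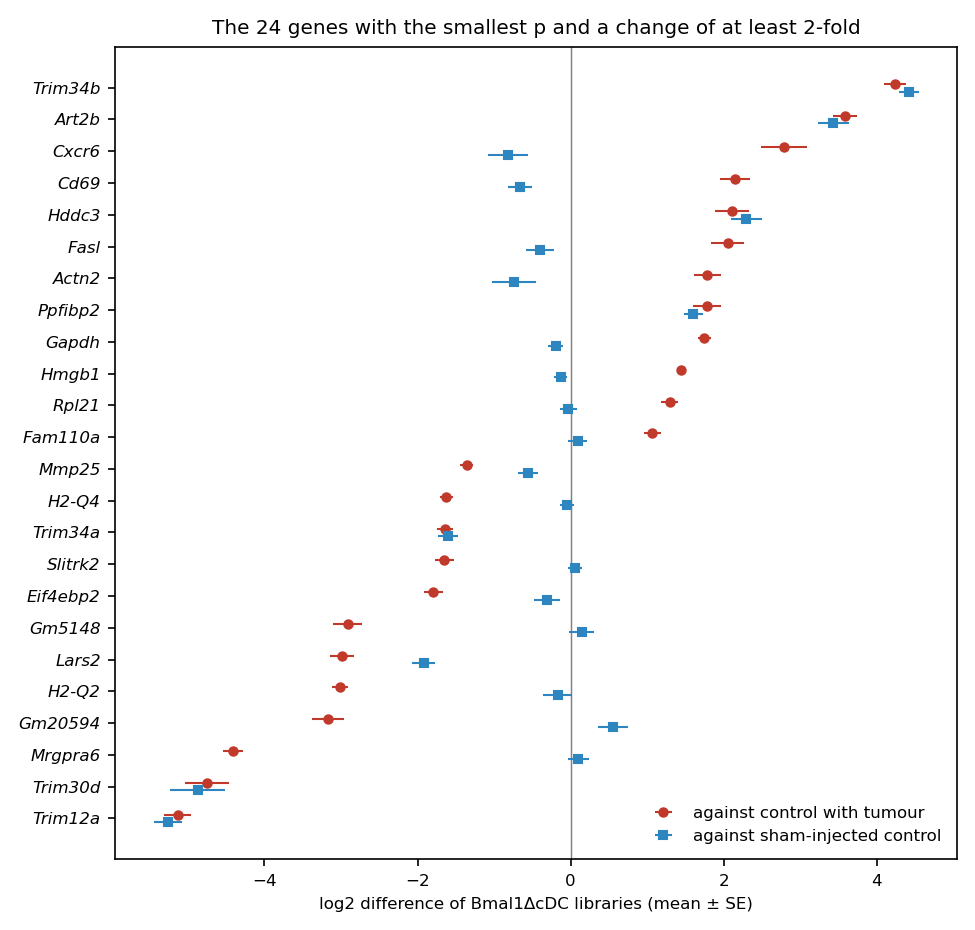
Difference (log2, mean ± SE) of the Bmal1ΔcDC libraries from control mice with tumour cells (circles) and from sham control mice (squares) for the 24 genes with the smallest p and a change of at least 2-fold. Both marks lie together for the 4 Trim genes, Art2b, Hddc3 and Ppfibp2, the square of Lars2 lies at -1.92, and those of the other 16 genes lie between -0.82 for Cxcr6 and 0.55 for Gm20594; the value of Trim34b against sham, which is listed at 0, depends on the pseudocount.

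Genes near the targeted alleles were counted because flanking DNA of the donor strain travels with a floxed or knock-in allele. Within 10 Mb of Arntl, 18 of 97 genes tested were called (18.6%, against 14.6% of all genes), and 8 of the 97 were called against sham (8.25%, against 1.70%). Trim30d, Trim34b, Trim12a and Trim34a lie 8.67 to 8.92 Mb from Arntl, between chr7:104244448 and chr7:104507853. Also lower in this stretch were Trim30a (38.9 to 58.9 CPM in control, 19.0 to 38.8 CPM in Bmal1ΔcDC) and the interferon-inducible GTPase Gvin1 (17.8 to 31.9 and 6.92 to 20.5 CPM), and Ppfibp2 lies 5.43 Mb and Art2b 11.6 Mb away. Within 2 Mb of Arntl itself, 1 of 13 genes was called.

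Around Clec9a (chr6:129408862-129424764), 13 of 41 genes within 2 Mb were called (31.7%) and 34 of 148 within 10 Mb (23.0%), against 14.6% of all genes. In the comparison with sham, 4 of the 41 (9.76%) and 6 of the 148 (4.05%) were called, against 1.70% of all genes. This stretch is the natural killer gene complex, which encodes lectin receptors of NK cells. Klrb1c (0 to 2.11 CPM in control, 4.57 to 9.49 CPM in Bmal1ΔcDC), Klrb1b (0.993 to 5.50 and 7.61 to 14.1 CPM) and Cd69 were higher. Klrb1c is also among the NK cell markers summed below. It was at 8.17 to 23.9 CPM in sham libraries (-1.04 for Bmal1ΔcDC minus sham, adjusted p = 0.108, limma). Clec2d, a ligand of these receptors, was higher too, at 11.8 to 28.5 CPM in control, 34.8 to 58.8 CPM in Bmal1ΔcDC and 18.4 to 28.7 CPM in sham libraries. Clec2d was higher than in tumour-bearing controls (1.23 ± 0.18, adjusted p = 0.000328) and than in sham controls (0.90, adjusted p = 0.0179, limma). Per chromosome, the share of genes called was 11.8% to 19.5%. Whether strain-derived sequence or the content of NK cells plays a part in these counts was not tested.

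Among the clock genes, Per1 and Dbp were lower and Rora and Hlf higher in Bmal1ΔcDC libraries in the light phase. Per1, a repressor arm gene with the E-box shown above, was lower, at 6.8 to 20.5 CPM (median 15.2) in control, 4.36 to 12.3 CPM (median 5.54) in Bmal1ΔcDC and 7.58 to 14.9 CPM (median 13.5) in sham libraries. The ranges overlapped, and the means of both genotypes were higher at ZT9 than at ZT3. At ZT3 the control mean was 11.1 ± 2.9 CPM (SD, n = 5) and the Bmal1ΔcDC mean 4.95 ± 0.58 CPM (n = 3), and at ZT9 they were 18.3 ± 2.0 CPM and 9.73 ± 3.6 CPM. Over both timepoints the difference was -1.0 ± 0.17 (adjusted p = 0.00116, limma), with -1.05 at ZT3 and -0.95 at ZT9. Against sham it was -0.76 (adjusted p = 0.105).

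Dbp, a PAR bZIP output factor, was at 15.3 to 42.4 CPM in control and 12.4 to 35.3 CPM in Bmal1ΔcDC libraries (-0.44 ± 0.14, adjusted p = 0.0475, limma). This call was kept in 11 of 28 alternative fits. It was lost on leaving out any 1 of 12 of the 16 libraries, namely control ZT3 replicates 1, 2, 4 and 5, control ZT9 replicates 1, 2, 3 and 5, Bmal1ΔcDC ZT3 replicates 1 and 2 and Bmal1ΔcDC ZT9 replicates 1 and 3, and the difference was -0.50 to -0.35 over these fits. The related Tef was at -0.45 ± 0.19 (adjusted p = 0.119) and Per3 at -1.02 ± 0.38 (adjusted p = 0.0852). Per2, Cry1, Cry2, Ciart and Bhlhe40 were not called either, with Cry1 at 0.41 ± 0.19 (adjusted p = 0.174) and the E-box-rich Ciart at 0.133 to 3.08 CPM in control and 0.302 to 2.52 CPM in Bmal1ΔcDC libraries.

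The nuclear receptor gene Rora, an activator of Arntl that innate lymphoid cells use too, was at 7.91 to 19.4 CPM in control, 16.5 to 38.7 CPM in Bmal1ΔcDC and 23.2 to 54.2 CPM in sham libraries (1.04 ± 0.19, adjusted p = 0.00191, limma). Hlf, a relative of Dbp, was at 0 to 1.33, 0.43 to 5.91 and 1.36 to 6.15 CPM (1.45 ± 0.39, adjusted p = 0.0213). Nr1d1, the direct BMAL1 target that encodes REV-ERBα, was not called, with 0.426 to 5.46 CPM in control and 2.01 to 5.24 CPM in Bmal1ΔcDC libraries (0.74 ± 0.32, adjusted p = 0.138).

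**Figure D3:**
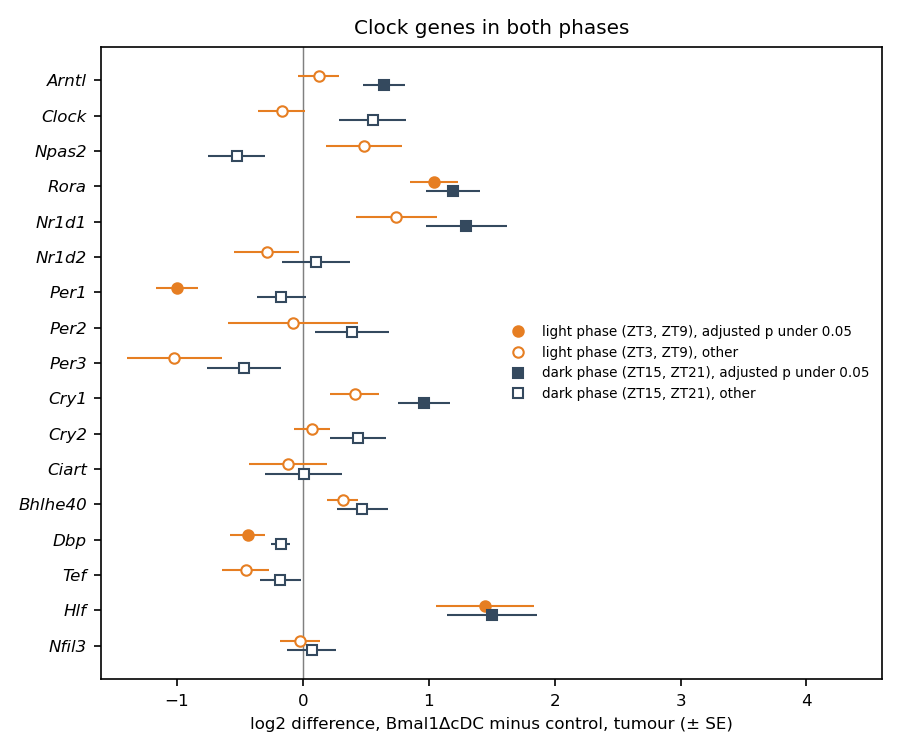
Genotype difference (log2, Bmal1ΔcDC minus control, ± SE) of clock genes in the light phase (circles) and, in other mice, in the dark phase (squares), filled where the adjusted p is under 0.05. Per1 lies at -1.0 in the light phase and -0.17 in the dark phase, whereas Rora and Hlf lie to the right of 0 in both.

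Cd80, the co-stimulatory ligand that the study singles out, was at 9.5 to 18.9 CPM (median 15.9) in control, 9.46 to 14.8 CPM (median 11.7) in Bmal1ΔcDC and 10.4 to 20.8 CPM (median 14.5) in sham libraries. The groups overlapped. At ZT3 the 3 Bmal1ΔcDC libraries held 14.8, 12.5 and 14.4 CPM against 12.3 to 18.9 CPM in 5 controls, and at ZT9 they held 9.46, 10.9 and 10.8 CPM against 9.5 to 17.2 CPM. The difference was -0.30 ± 0.13 and was not called over all genes (adjusted p = 0.125, limma), while the exact permutation test for this single gene gave p = 0.0341 (two-sided). That p ranged from 0.00918 to 0.0884 when each library was left out in turn, with differences of -0.36 to -0.26. It was 0.05 or more without any 1 of control ZT3 replicates 1 and 2, control ZT9 replicates 1, 2 and 4, Bmal1ΔcDC ZT3 replicate 2 and Bmal1ΔcDC ZT9 replicates 1, 2 and 3. Against sham the difference was -0.27 (adjusted p = 0.523).

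Of 6 B7 family ligands tested, Cd80 included, 0 were called, with a median of 0.007 as deposited and -0.01 after median-of-ratios scaling. Icosl, the ligand of ICOS, was at 267 to 559 CPM in control and 501 to 806 CPM in Bmal1ΔcDC libraries (0.40 ± 0.16, adjusted p = 0.104, limma), and Pdcd1lg2 was at -0.09 ± 0.13 (adjusted p = 0.705). Of 6 TNF family co-stimulators, 3 were higher and 0 lower (median 0.23), against 8.38% and 6.22% of all genes. Tnfsf14, the LIGHT cytokine, was at 0 to 2.79 CPM in control, 2.42 to 7.92 CPM in Bmal1ΔcDC and 5.11 to 12.6 CPM in sham libraries (1.72 ± 0.36, adjusted p = 0.00492). Cd83, which keeps MHC class II and CD86 at the cell surface, was at 1693 to 2687 CPM in control and 2549 to 3060 CPM in Bmal1ΔcDC libraries (0.37 ± 0.10, adjusted p = 0.0245), a call that was lost without Bmal1ΔcDC ZT9 replicate 1 (0.36, adjusted p = 0.0541) or replicate 3 (0.33, adjusted p = 0.0638). The third of these genes, Tnfsf9, the 4-1BB ligand, was at 19.9 to 84.7 CPM in control and 55 to 79.5 CPM in Bmal1ΔcDC libraries (0.81 ± 0.22, adjusted p = 0.0233). It lost its call without Bmal1ΔcDC ZT9 replicate 1 (0.73, adjusted p = 0.0581), replicate 2 (0.73, adjusted p = 0.0573) or replicate 3 (0.77, adjusted p = 0.0528), so that the count of 3 falls to 1 without replicate 1 or replicate 3.

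Antigen presentation genes were read against 8.38% higher and 6.22% lower of all genes and their median of 0.02. Of 12 MHC class II genes 2 were higher and 0 lower (median 0.28; 1 higher after median-of-ratios scaling), and of 15 MHC class I genes 3 were higher and 0 lower (median -0.02). The class I list had 5 positive and 10 negative differences, and 2 genes were higher after median-of-ratios scaling. B2m, among the 3 called (0.30, adjusted p = 0.0436, limma), kept its call in 13 of 29 alternative fits. H2-DMb1, a chain of the peptide editor of class II, was at 58.5 to 93.5 CPM in control and 83.7 to 147 CPM in Bmal1ΔcDC libraries (0.52 ± 0.10, adjusted p = 0.00354, limma). Calr, the calreticulin chaperone of class I loading, was at 360 to 433 and 408 to 524 CPM (0.29 ± 0.06, adjusted p = 0.00663). The invariant chain Cd74 was not called (0.34 ± 0.13, adjusted p = 0.102), nor were H2-Aa and H2-Ab1.

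Of 17 genes of the migratory dendritic cell programme 2 were higher and 0 lower (median -0.02; 1 and 1 after median-of-ratios scaling), against 8.38% and 6.22% of all genes. Samsn1, an adaptor of this programme, was at 1403 to 1751 CPM in control and 1958 to 2159 CPM in Bmal1ΔcDC libraries, without overlap (0.43 ± 0.06, adjusted p = 0.000302, limma). The other higher gene, Marcksl1 (0.26, adjusted p = 0.043, limma), kept its call in 11 of 29 alternative fits. With 1 library left out, Marcksl1 was called only without control ZT3 replicate 3 or control ZT9 replicate 1. The migration receptor Ccr7 was not called (0.10). Of 14 transcription and growth factor genes of the DC lineage, 4 were higher and 1 lower (median -0.099, with 5 positive and 9 negative differences; 3 and 2 called after median-of-ratios scaling). The lower gene was Notch2, a receptor needed by cDC2 subsets, at 37.8 to 73.9 CPM in control, 13.2 to 30.7 CPM in Bmal1ΔcDC and 21.5 to 35.9 CPM in sham libraries (-1.55 ± 0.19, adjusted p = 7.6e-05). Klf4 (1.21 ± 0.21), Csf1r (0.96 ± 0.23) and Id2 (0.37 ± 0.09) were higher.

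Chemokines, their receptors and cytokines were higher in Bmal1ΔcDC libraries in larger shares than all genes. Of 15 chemokine ligands 7 were higher and 1 lower (median 0.64), of 11 chemokine receptors 5 and 0 (median 0.76) and of 14 cytokines 5 and 0 (median 0.32), against 8.38% and 6.22% of all genes and a median of 0.02. The inflammatory chemokine Ccl4 was at 1.04 to 11.1 CPM in control, 13.8 to 42.0 CPM in Bmal1ΔcDC and 48.8 to 104 CPM in sham libraries. Its 3 groups did not overlap, and Bmal1ΔcDC lay between the 2 control groups (2.40 ± 0.29, adjusted p = 7.81e-05, and -1.70 against sham, adjusted p = 0.00431, limma). Cxcl10, a ligand of CXCR3 on T and NK cells, was at 4.59 to 20.4, 20.6 to 45.2 and 35.9 to 69.2 CPM (1.34 ± 0.24, adjusted p = 0.00172).

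Among the 5 receptors that were higher, Cxcr3 was at 1.60 to 5.55 CPM in control, 4.70 to 14.0 CPM in Bmal1ΔcDC and 14.7 to 20.3 CPM in sham libraries, and Ccr2, the receptor of inflammatory monocytes, at 0.288 to 21.3, 10.7 to 52.6 and 51.3 to 71.4 CPM (1.99 ± 0.40, adjusted p = 0.00396, limma). Ccr6, which responds to CCL20, was at 11.8 to 28.9, 25 to 40.8 and 41.8 to 96.0 CPM. Against sham, 0 of the 11 receptors were higher and 6 lower (median -1.15), where 31 of the 11963 genes tested were higher and 172 lower. Among cytokines, Il1b was at 50.4 to 244 CPM in control, 169 to 434 CPM in Bmal1ΔcDC and 243 to 390 CPM in sham libraries (1.08 ± 0.22, adjusted p = 0.00392), Tnf at 13.8 to 67.8, 59.8 to 102 and 82.1 to 153 CPM and Il2, the T cell growth factor, at 0.13 to 3.06, 2.06 to 5.20 and 4.46 to 9 CPM.

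Of 19 C-type lectin receptors 7 were higher and 1 lower (median 0.67), against 8.38% and 6.22% of all genes. Of 12 Toll-like receptors 0 were higher and 1 lower (median -0.004), a count near those shares, and the 2 families were not tested against each other. Clec4n, which encodes Dectin-2, was at 2.72 to 9.55 CPM in control, 7.12 to 15 CPM in Bmal1ΔcDC and 13.9 to 23.4 CPM in sham libraries (0.89 ± 0.18, adjusted p = 0.00424, limma), and the DCIR family gene Clec4a3 was at 1.5 to 11.4, 9.18 to 17.9 and 15.8 to 32.8 CPM. The lower Toll-like receptor was the DNA sensor Tlr9, at 1.07 to 3.04, 0.152 to 1.81 and 0.618 to 3.69 CPM (-1.02 ± 0.23, adjusted p = 0.00752). Among 14 integrin and adhesion genes 6 were higher and 1 lower (median 0.084; 5 and 0 after median-of-ratios scaling), with Itgal (LFA-1 alpha chain) at 9.84 to 36.5 CPM in control and 31.3 to 84.4 CPM in Bmal1ΔcDC libraries and Itgam (CD11b) at 0.907 to 7.09 and 7.83 to 14.8 CPM.

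Markers of several other cell types, though not of all, moved with these genes. The summed level of 12 NK cell markers was 61.0 to 85.5 CPM (median 74.1) in control, 104 to 171 CPM (median 136) in Bmal1ΔcDC and 157 to 399 CPM (median 229) in sham libraries, and 6 of the 12 were higher by genotype and 0 lower, where 8.38% and 6.22% of all genes were. The activating receptor Ncr1 was at 0 to 3.68 CPM in control and 4.95 to 10.1 CPM in Bmal1ΔcDC libraries, and the granzyme gene Gzma at 0.0464 to 6.01 and 6.37 to 23.7 CPM. Neither range overlapped between genotypes, while the Ly49 receptor genes Klra4 and Klra8 had a median of 0 CPM in controls and 0.185 and 0.0241 CPM in Bmal1ΔcDC libraries.

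Counts of called markers of the other cell types were read against 8.38% higher and 6.22% lower of all genes. The 16 monocyte and macrophage markers summed to 470.5 to 1171 CPM (median 657) in control, 954 to 2020 CPM (median 1469) in Bmal1ΔcDC and 2385 to 2841 CPM (median 2636) in sham libraries, with 9 higher and 2 lower by genotype. Lyz2, lysozyme of myeloid cells, was at 306 to 941, 746 to 1639 and 1839 to 2264 CPM (1.09, adjusted p = 0.000187, limma). The macrophage marker Mertk was at 0 in the median Bmal1ΔcDC library and at 0.566 CPM in the median control library (-0.98, adjusted p = 0.0154). Of 17 T cell markers 5 were higher and 2 lower, with sums of 673 to 975 CPM in control and 804 to 1039 CPM in Bmal1ΔcDC libraries. Of 8 plasmacytoid DC markers 4 were higher and 0 lower, while their sums overlapped, at 170 to 234 CPM in control and 155 to 301.5 CPM in Bmal1ΔcDC libraries. Of 11 B cell markers 1 was higher and 0 lower, and 0 of 6 granulocyte and 0 of 10 stroma and endothelium markers were called. The 4 plasma cell markers summed to 4.92 to 13.6 CPM in control and 16.4 to 28.2 CPM in Bmal1ΔcDC libraries, without overlap, with 3 higher. Of 5 mast cell markers 2 were higher (median 2.12; 1 higher after median-of-ratios scaling). The part of these cells in the chemokine, receptor, lectin and clock results, where Rora, Cxcr6, Ccl4 and Ccr2 are lymphoid or monocyte genes, was not tested.

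Marker sums of cDC subsets overlapped between the genotypes, and the counts called are read against 8.38% higher and 6.22% lower of all genes. The 13 cDC1 markers summed to 875 to 1158 CPM in control and 907 to 1283 CPM in Bmal1ΔcDC libraries, and 3 were higher and 0 lower. The 12 cDC2 markers summed to 253 to 345 and 271 to 418 CPM, with 3 higher and 0 lower. The 5 Langerhans cell markers summed to 85.6 to 147 CPM in control and 118 to 202 CPM in Bmal1ΔcDC libraries, and 3 were higher, among them langerin (Cd207) at 8.22 to 24.6 CPM in control, 15.2 to 39.4 CPM in Bmal1ΔcDC and 12.9 to 24.9 CPM in sham libraries (0.74, adjusted p = 0.0286, limma).

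**Figure D4:**
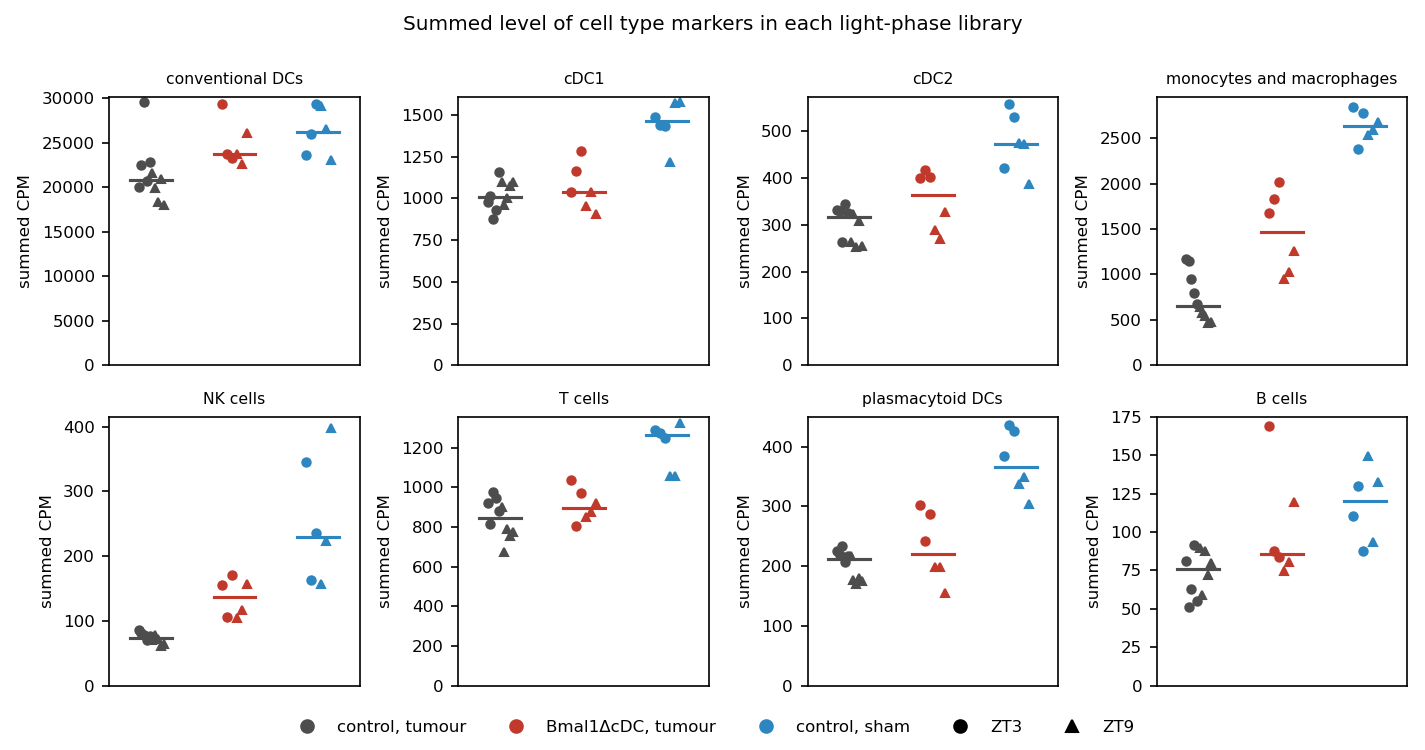
Summed CPM of the markers of 8 cell types in each light-phase library (circles ZT3, triangles ZT9), with a line at each group median. The NK cell sum of all 6 Bmal1ΔcDC libraries (104 to 171 CPM) lies above that of all 10 control libraries (61.0 to 85.5 CPM), and the sums of conventional DCs and cDC1 overlap between these groups.

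Immediate early genes, which cells induce within minutes of stimulation or of tissue dissociation, were the list with the largest share of calls among the 31 functional lists tested. Of 23 tested, 16 were higher and 0 lower (median 0.70; 15 and 1 after median-of-ratios scaling), against 8.38% and 6.22% of all genes. Fos was at 319 to 984 CPM (median 556) in control, 1056 to 1412 CPM (median 1304) in Bmal1ΔcDC and 1757 to 2421 CPM (median 1848) in sham libraries. The 3 groups did not overlap (1.19 ± 0.17, adjusted p = 0.000243, and -0.64 against sham, adjusted p = 0.0179, limma).

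The zinc finger genes followed. Egr2 was at 5.02 to 24.2 CPM in control, 21.6 to 62.4 CPM in Bmal1ΔcDC and 66.5 to 103 CPM in sham libraries (1.97 ± 0.25, adjusted p = 0.000128, limma), and Klf2, a quiescence and trafficking factor, at 41.6 to 82.4, 83.8 to 159 and 93.6 to 192 CPM (0.99 ± 0.12, adjusted p = 7.6e-05). Jund was at 142 to 238, 269 to 435 and 250 to 577 CPM. For Klf2 and Jund all Bmal1ΔcDC libraries lay above all tumour-bearing control libraries.

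Other stress lists were read against 8.38% higher and 6.22% lower of all genes. Of 15 heat shock genes 2 were higher and 2 lower (median 0.03), and the co-chaperone Bag3 was at 19.5 to 25.4 CPM in control and 26.3 to 35.8 CPM in Bmal1ΔcDC libraries (0.43 ± 0.07, adjusted p = 0.001, limma). The lower genes were the inducible HSP70 genes Hspa1b, at 26.3 to 435 CPM in control and 18.7 to 32.8 CPM in Bmal1ΔcDC libraries (-1.62 ± 0.41, adjusted p = 0.0159), and Hspa1a (-1.24 ± 0.37, adjusted p = 0.0339). The call of Hspa1a was lost on leaving out any 1 of control ZT3 replicates 2 and 5, control ZT9 replicates 3 and 5, Bmal1ΔcDC ZT3 replicates 1, 2 and 3 and Bmal1ΔcDC ZT9 replicate 2 (adjusted p = 0.0526 to 0.0721), and both genes held fractions of a read in 95.5% or more of the libraries. Of 19 genes of the unfolded protein and integrated stress response 5 were higher and 0 lower (median 0.18), led by Hspa5, the ER chaperone BiP, at 318 to 415, 452 to 590 and 547 to 619 CPM in control, Bmal1ΔcDC and sham libraries (0.59 ± 0.08, adjusted p = 0.00019). Of 9 glucocorticoid receptor genes and targets 1 was higher and 1 lower. Tsc22d3, the glucocorticoid-induced leucine zipper, was at 199 to 333, 297 to 578 and 231 to 378 CPM (0.72 ± 0.11, adjusted p = 0.000443, and 0.54 against sham, adjusted p = 0.0469).

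Genes of the mTOR and PI3K-AKT pathway, which couples CD28 and growth factor signals to translation, were lower in 6 of 18 cases and higher in 1 (median -0.175), against 6.22% lower and 8.38% higher of all genes. At ZT3 alone the list's median was 0.087 with 1 gene lower, and in the dark phase it was 0.143 with 3 genes higher and 1 lower. The kinase gene Akt1 was at 142 to 218 CPM (median 192) in control, 35.7 to 177 CPM (median 47.8) in Bmal1ΔcDC and 44.3 to 133 CPM (median 55.5) in sham libraries. Bmal1ΔcDC ZT9 replicate 3 reached the control range and the other 5 lay below it (-1.6 ± 0.26, adjusted p = 0.000697, limma). Mtor was at 14.2 to 52.0, 11.8 to 19.1 and 16.7 to 35.7 CPM (-1.01 ± 0.20, adjusted p = 0.00391), and the mTORC1 inhibitor Tsc1, which acts against the pathway, at 20.6 to 43.6, 12.7 to 20.6 and 12 to 27.4 CPM (-0.89 ± 0.14, adjusted p = 0.000871). The lower genes thus include activators and an inhibitor.

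Lipid genes were read against 8.38% higher and 6.22% lower of all genes. Of 23 cholesterol synthesis genes 0 were higher and 2 lower (0 and 1 after median-of-ratios scaling). Of 12 sterol efflux and lipid uptake genes 1 was higher and 2 lower (median 0.1), and of 12 fatty acid synthesis genes 0 were called in either direction (Fasn -0.38 ± 0.22, adjusted p = 0.267, limma). Srebf2, the master regulator of sterol synthesis, was at 254 to 366 CPM in control, 189 to 283 CPM in Bmal1ΔcDC and 172 to 274 CPM in sham libraries (-0.49 ± 0.10, adjusted p = 0.003). The other lower synthesis gene, Mvk (-0.48, adjusted p = 0.0354, limma), kept its call in 16 of 29 alternative fits. Mvk lost it without any 1 of control ZT3 replicates 1, 2 and 5, control ZT9 replicates 3 and 4, Bmal1ΔcDC ZT3 replicates 2 and 3 and Bmal1ΔcDC ZT9 replicates 2 and 3. Abcg1, a cholesterol exporter, was at 468 to 599, 251 to 349 and 284 to 407 CPM, without overlap between the genotypes (-0.80 ± 0.09, adjusted p = 3.82e-05), whereas Apoe, a lipid carrier made by macrophages, was higher at 154 to 303, 266 to 490 and 535 to 818 CPM (0.79 ± 0.13, adjusted p = 0.00103). Of 20 glycolytic genes 3 were higher and 0 lower, Gapdh and Ldha among them, a share called near the 14.6% of all genes.

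Of 31 interferon-stimulated genes 0 were higher and 2 lower, Zbp1 and Rsad2, a share called lower near the 6.22% of all genes. The list's median was -0.225 in the light phase, -0.043 at ZT3, -0.409 at ZT9 and 0.11 in the dark phase. Zbp1, a sensor of Z-form nucleic acid, was at 46.8 to 77.6 CPM in control, 34.8 to 50.2 CPM in Bmal1ΔcDC and 48.1 to 73.0 CPM in sham libraries (-0.46 ± 0.11, adjusted p = 0.0137, limma), and Rsad2, the antiviral enzyme viperin, at 18.8 to 34.4, 15.8 to 21.1 and 16.4 to 56.3 CPM (-0.53 ± 0.13, adjusted p = 0.0151).

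Of 33 cell cycle genes 14 were higher and 1 lower, against 8.38% and 6.22% of all genes, and 32 of the 33 had a positive difference (median 0.50). The mitotic genes Birc5 and Ccnb2 were at 2.03 to 5 and 1.21 to 3.99 CPM in control, 6.43 to 10.2 and 4.78 to 8.84 CPM in Bmal1ΔcDC and 7.25 to 18.5 and 7.07 to 13.2 CPM in sham libraries (1.24 ± 0.15 and 1.32 ± 0.23, adjusted p = 9.49e-05 and 0.00143, limma). The replication clamp Pcna was at 57.4 to 77.3, 81.0 to 98.4 and 79.4 to 106 CPM.

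Lists of large housekeeping complexes were read against the same shares, 8.38% higher and 6.22% lower of all genes. Of 81 cytosolic ribosomal protein genes 5 were higher and 12 lower (median -0.17; 3 and 6 after median-of-ratios scaling), with Rpsa at 1276 to 1812 CPM in control, 796 to 1018 CPM in Bmal1ΔcDC and 903 to 1092 CPM in sham libraries (-0.65 ± 0.09, adjusted p = 0.000208, limma). Genes of mitochondrial ribosomal proteins had 14 of 77 higher and 1 lower (median 0.15; 5 and 0 after rescaling), respiratory chain subunits 10 of 77 and 0 (median 0.15; 3 and 0) and proteasome subunits 7 of 38 and 0 (median 0.11; 4 and 0). Mrpl39, a subunit of the large mitochondrial ribosome, was at 24.3 to 34.8, 35.5 to 49.9 and 30.6 to 47.8 CPM, without overlap between the genotypes, and so was Cox7c of complex IV, at 106 to 158, 180 to 265 and 148 to 196 CPM.

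**Figure D5:**
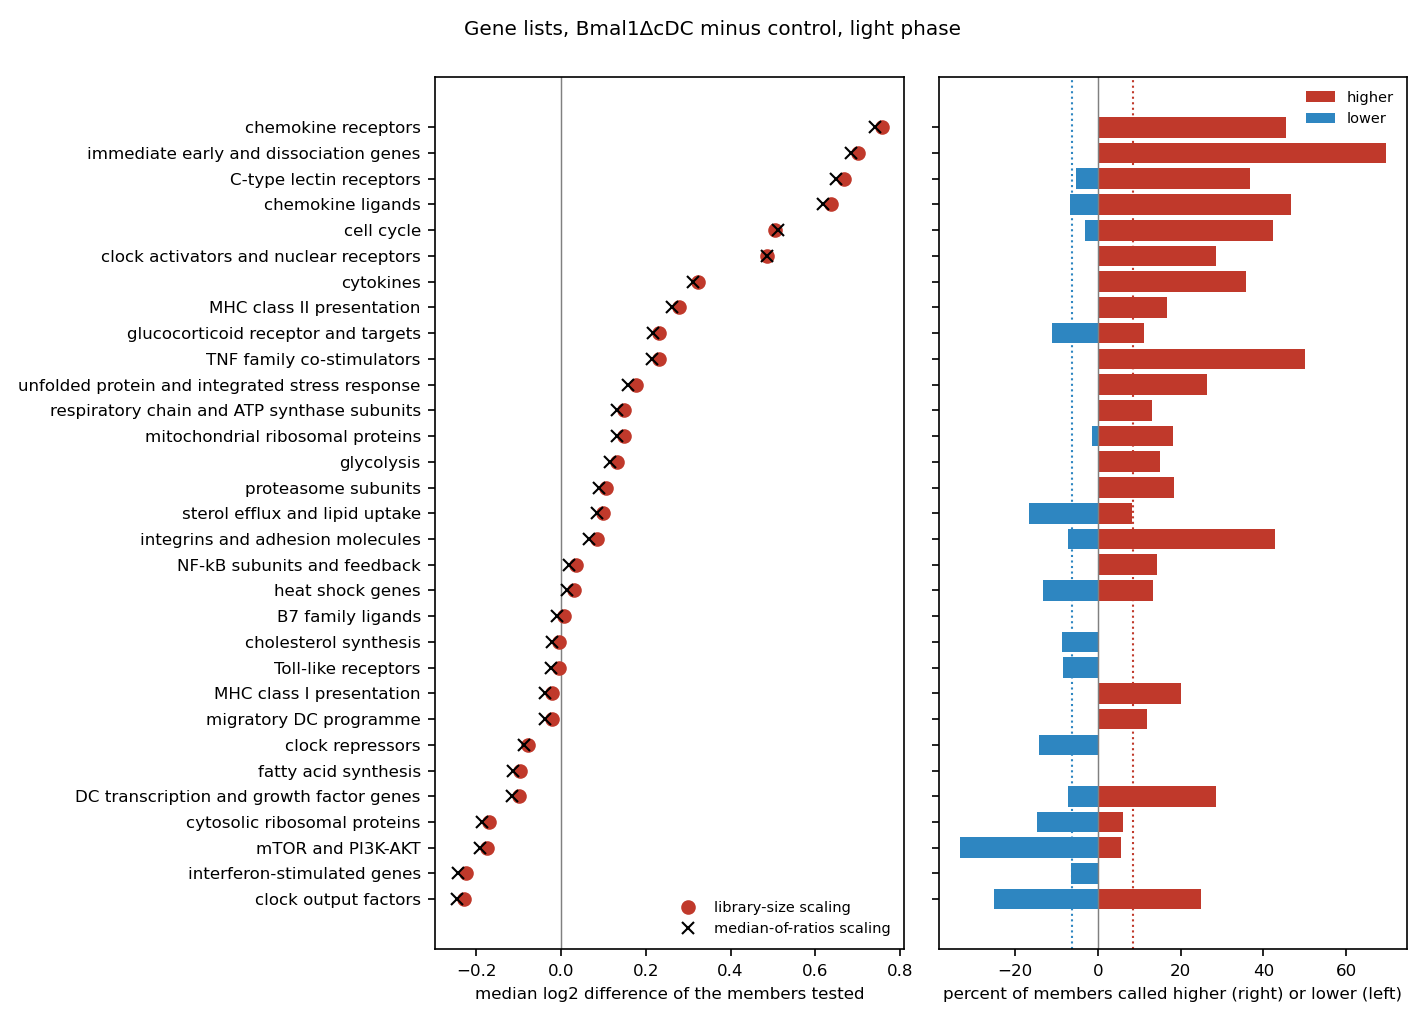
Left, the median genotype difference (log2) of each gene list in the light phase as deposited (circles) and after median-of-ratios scaling (crosses). Right, the percent of members called higher or lower, with dotted lines at the shares of all genes (8.38% and 6.22%): chemokine receptors (0.76) and immediate early genes (0.70) have the highest medians, and mTOR and PI3K-AKT genes the largest share called lower.

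At ZT3 alone 545 genes (4.56%) differed by genotype, 322 higher and 223 lower, and median-of-ratios scaling turned this split to 222 and 298. At ZT9 alone 881 genes (7.36%) differed, 406 higher and 475 lower. Without control ZT3 replicate 3 the splits were 340 higher and 326 lower at ZT3 and 546 higher and 769 lower at ZT9. The counts were 280 to 666 at ZT3 and 468 to 1315 at ZT9 when each library was left out, so the difference in counts between the timepoints does not show a different effect. The test of that, genotype by timepoint, called 0 genes (0%) with limma in either scaling, and 979 genes had an unadjusted p under 0.05. The smallest p belonged to Dio1, a thyroid hormone deiodinase, at 4.95 ± 1.6 (SD, n = 5) and 4.16 ± 0.75 CPM (n = 3) in control and Bmal1ΔcDC libraries at ZT3 and 4.44 ± 1.0 and 0.256 ± 0.23 CPM at ZT9 (adjusted p = 0.12, limma).

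Dark-phase libraries (ZT15 and ZT21) come from other mice and give a second look at the genotypes. There 3280 genes (27.4%) differed, 2578 higher and 702 lower in Bmal1ΔcDC, with a median of 0.19 over all genes, and after median-of-ratios scaling 1149 were higher and 1254 lower. Of the 1003 genes higher in the light phase, 589 (58.7%) were higher and 0 lower in the dark phase, against 21.6% and 5.87% of all genes, and these 589 made up 22.9% of the genes higher in the dark. Of the 744 genes lower in the light phase, 267 (35.9%, or 38.0% of those lower in the dark) were lower and 7 higher. For the 2-fold changes the shares were 184 of 218 and 88 of 192. The genotypes did not overlap in estimated depth in the dark phase either (20088012 to 28962671 reads in control and 29406729 to 46028918 in Bmal1ΔcDC libraries).

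The genes with the widest separation had the same sign in the dark phase. Trim12a was at -4.98 (adjusted p = 1.86e-09), Trim34b at 4.09 (adjusted p = 3.1e-10), Lars2 at -3.84 (adjusted p = 3.1e-10) and Cxcr6 at 2.46 (adjusted p = 0.000105, limma). Against 21.6% higher and 5.87% lower of all genes in the dark phase, immediate early genes had 16 of 23 higher and 0 lower. Cytosolic ribosomal protein genes had 3 of 81 higher and 69 lower (median -0.77). The test of genotype by phase called 0 of these 81 genes in either direction (median 0.58), where it called 0.493% of all genes. In the dark phase Arntl was higher (0.64, adjusted p = 0.0105), and Per1 (-0.17, adjusted p = 0.528) and Cd80 (-0.02, adjusted p = 0.95) were not called. The test of the difference between the phases called none of these 3 genes, with -0.52 ± 0.24 for Arntl (adjusted p = 0.205), -0.83 ± 0.27 for Per1 (adjusted p = 0.108) and -0.28 ± 0.20 for Cd80 (adjusted p = 0.39). Cry1 (0.96, adjusted p = 0.00413) and Nr1d1 (1.30, adjusted p = 0.00836), not called in the light phase, were higher in the dark phase (limma). The test between the phases did not call Cry1 (adjusted p = 0.252) or Nr1d1 (adjusted p = 0.496) either. In the dark phase 0 clock genes were called lower, against 5.87% of all genes.

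The test of genotype by phase called 59 genes (0.493%), 2 with a higher and 57 with a lower genotype effect in the light phase. Median-of-ratios scaling left 4 of them, Agap3, Atp13a1, Myo7a and Zfp667, and without control ZT3 replicate 3 the test called 1255. Without Bmal1ΔcDC ZT21 replicate 3 it called 642, and without Bmal1ΔcDC ZT21 replicate 1 it called 19. Myo7a, an unconventional myosin, was lower in Bmal1ΔcDC in the light phase (1.60 to 3.86 CPM in control, 0 to 1.78 CPM in Bmal1ΔcDC) and higher in the dark phase (0.969 to 4.01 and 1.94 to 7.28 CPM). Its difference between the phases was -2.71 ± 0.38 (adjusted p = 0.00172, limma).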

How the data were processed

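The deposited table holds CPM (reads of a gene per 1000000 reads on genes) for 14699 genes in 44 libraries. The authors made it from single reads of 50 bases (SMART-Seq v4 and Nextera XT libraries), aligned to mm10 with STAR, counted with HTSeq and scaled by library size in edgeR. The submitters' processing notes give STAR 2.7.0 and HTSeq 0.9.1. Of the CPM values, 89.1% to 91.6% per library were whole multiples of 1 read (tolerance 0.02), so no count test was run.

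The 11963 genes that reached 1 CPM in 5 or more libraries of the 44 entered the test on log2(CPM + 0.5) with limma 3.58.1 in R 4.3.3 (timepoint as covariate, empirical Bayes moderation, two-sided, Benjamini-Hochberg adjustment over all genes, called at an adjusted p under 0.05). Fold changes on this scale understate the change of low genes. Arntl and Cd80 were also tested by exact permutation. Named genes were Arntl, Cd80 and Clec9a, the 12 higher and 12 lower genes with the smallest p and at least a 2-fold change, up to 4 members of each gene list, the 3 genes with the smallest p at each timepoint and in each interaction, and up to 10 called genes within 10 Mb of Arntl or Clec9a. Not all of these are described, and some genes are not reported here. Marker genes, Ccr7, Nr1d2, Per2, Cry2, Ciart, H2-Aa, H2-Ab1 and Agap3 were chosen after their values were seen. Members and lists were chosen with earlier results of these data known.

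Promoters came from RefSeq (GRCm38.p6). Tables were made with Python 3.11.15, numpy 2.4.6, pandas 2.3.3 and matplotlib 3.10.9, and the fits were tested on simulated data. Alternatives were other scaling, pseudocounts, filters, variance models, sample choices, a replicate block and leaving out each library. Those of the exact tests were added after seeing the data.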

Additional observations from a re-analysis of the deposited data

Results flagged for a closer look

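In the 186 control groups of 5 libraries tested over 93 genes, 17 held a library whose gap to the nearest other took most of the group's range. Chance gives about 1 in 20 such groups. Control ZT3 replicate 3 was the highest for Mrgpra6 (21.6 CPM, others 15.6 to 16.6 CPM) and Rpl21 (167 CPM, others 106.5 to 115.5 CPM), and the lowest for Akt1 (142.5 CPM, others 184.6 to 204.7 CPM) and Icosl (266.7 CPM, others 474 to 540.4 CPM). Control ZT3 replicate 4 was the lowest for Ldha (211.3 CPM, others 236.2 to 242.5 CPM) and Tnf (25.1 CPM, others 51.6 to 67.8 CPM).

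At ZT9, control replicate 1 was the highest for Id2 (2757 CPM, others 1911 to 2104 CPM), Rpl21 (152.5 CPM, others 112.2 to 120.6 CPM) and Rpsa (1597 CPM, others 1384 to 1429 CPM). Control ZT9 replicate 2 was the highest for Hspa5 (379.6 CPM) and Il2 (3.06 CPM) and the lowest for Cry1 (4.55 CPM). Control ZT9 replicate 4 was the highest for Samsn1 (1751 CPM) and the lowest for Dbp (33.5 CPM). Control ZT9 replicate 5 was the highest for Trim34b (0.404 CPM) and the lowest for Atp13a1 (42.5 CPM) and Clec9a (0.315 CPM).

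The genotype effect differed between the light and the dark phase for Myo7a (-2.71 ± 0.38, adjusted p = 0.00172), Atp13a1 (-1.37 ± 0.22, adjusted p = 0.00613) and Zfp667 (-2.57 ± 0.47, adjusted p = 0.02), tested as an interaction in limma.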

How the results depend on the processing

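The limits include few replicates, depth that separates the genotypes and counts that depend on single libraries, control ZT3 replicate 3 among them. The light-phase genotype effect called 1367 to 2365 genes when 1 library was left out, the higher value without control ZT3 replicate 3, and 410 at 2-fold or more. The same removals gave 280 to 666 genes at ZT3, 468 to 1315 at ZT9, 0 to 1 for genotype by timepoint, 2634 to 3329 in the dark phase, 19 to 1255 for genotype by phase and 73 to 199 against sham, the lowest without sham ZT3 replicate 3. Array weights gave 1522 genes at ZT9. Median-of-ratios scaling left 4 genes in genotype by phase, and cell means over all 44 libraries called 1 gene, Napb, in genotype by timepoint. With control replicates 1 to 3 alone, 649 genes were called in the light phase, 118 at ZT3 and 182 at ZT9, where fewer samples were fitted. For the other settings the cause was not tested. The exact test of Cd80 gave differences of -0.36 to -0.26 when 1 library was left out. Of 127 named genes called, 119 were called after median-of-ratios scaling, 127 with a pseudocount of 1 or 0.1, 85 with control replicates 1 to 3 alone and 120 to 127 when 1 library was left out, and 0 changed direction. Among genes that were not called, Cd276 was at -0.18 with a pseudocount of 0.1 and at -0.14 to 0.44 when 1 library was left out, and Nfil3 at 0.015 with control replicates 1 to 3 and -0.15 to 0.085 when 1 library was left out.

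Replicate numbers do not pair the samples: the correlation of deviations between control and Bmal1ΔcDC libraries of the same number was -0.10 to 0.041, and control replicates 4 and 5 have no partner. With the replicate block the light-phase test called 758 genes, ZT3 205, ZT9 295, genotype by timepoint 1 (Dio1), the dark phase 1957 and genotype by phase 35, and Nfil3 was at 0.015. Of the 127 named genes called, 91 were called under the block.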
